A study of Mus musculus with 14 samples.

Results

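Asparagine-linked glycosylation was followed through 45 genes that supply, assemble, transfer and trim its sugar precursor, out of 24411 genes counted in the livers of male mice. The genes were given as a list by their function in the pathway and were looked up by symbol in the gene counts. All 45 were found, and 43 had enough reads to be tested. Dpm1, the catalytic subunit of dolichol phosphate mannose synthase, and Pmm1, a phosphomannomutase, fell below the filter with 2 to 18 and 1 to 8 reads per sample.

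The N-glycan is built on the lipid dolichol phosphate in the membrane of the endoplasmic reticulum (ER). Dpagt1 adds the first sugar phosphate from UDP-N-acetylglucosamine (UDP-GlcNAc), and the Alg enzymes then add further sugars, first on the cytosolic face and, after the lipid has flipped, on the lumenal face. The oligosaccharyltransferase complex moves the finished glycan onto new proteins, glucosidases trim it, and lectin chaperones read the trimmed form. Tunicamycin blocks Dpagt1, so that proteins enter the ER without N-glycans, and it is widely used to raise ER stress. The liver secretes most plasma glycoproteins, which makes its hepatocytes heavy users of this pathway.

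Mice were littermates of 5 to 7 months that all carried Rbbp5 alleles flanked by loxP sites on both chromosomes. WT mice lacked Alb-Cre, and LKO mice carried 1 copy of it, a Cre driven by the albumin promoter and so aimed at hepatocytes. Rbbp5 was not measured separately in hepatocytes and other liver cells. Rbbp5 encodes a core subunit of histone methyltransferase complexes, and some sample labels spell the genotype RRBP5. Each mouse received 0.05 mg/kg tunicamycin in 500 µl of 3% DMSO in PBS, or that vehicle alone, into the abdomen between 9 and 10 am, and liver RNA was taken 8 h later. The groups were WT vehicle (3 libraries), WT tunicamycin (3), LKO vehicle (4) and LKO tunicamycin (4). No separate culture or cell sort stands between the tissue and the RNA, so fewer cells of a type and less RNA per cell cannot be told apart.

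Libraries held 6507018 to 13519421 reads on genes, of which the ribosomal gene Rn45s took 72.5 to 75.5%. That left 1704479 to 3551398 reads for all other genes. In LKO vehicle, library 3 was nearly a repeat of library 4 (chi-square of 1.12 per degree of freedom, against 3.38 to 25.9 in the 17 other pairs within groups). Their reads were summed as 1 sample, which left 13 samples. WT tunicamycin 3 stood apart from the other libraries of its group (25.9 and 25.8, against 6.23 between those), and LKO vehicle 2 from its own (13.1 to 16.5). Rbbp5 reads checked the genotype, although the labels do not say which exons are removed. Rbbp5 stood at 4.07, 6.41 and 5.102 CPM in WT vehicle, 5.37, 5.03 and 5.71 in WT tunicamycin, 4.15, 1.898 and 2.79 in LKO vehicle and 2.798, 3.12, 3.46 and 2.06 in LKO tunicamycin. The library labelled LKO vehicle 1 lay within the WT vehicle range, and the LKO tunicamycin samples all lay below the WT tunicamycin samples. Hspa5, which encodes the ER chaperone BiP, stood at 197, 211 and 253 CPM (reads scaled to 1 common library size) in WT vehicle, at 854, 313 and 786 in WT tunicamycin, at 127, 117 and 173 in LKO vehicle and at 229, 142, 181 and 207 in LKO tunicamycin. WT tunicamycin 2 was thus far below the other 2 libraries of its group for Hspa5. Of the cell type marker lists, that of hepatocytes had the highest sum in every sample. Its 6 genes summed to 13349 to 23293 CPM, mostly from Alb (9850 to 19101 CPM).

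Promoter windows of 4 genes are shown, 300 bases each, from 250 before to 50 after the start of the RefSeq transcript (build GRCm38.p6). Ddost was the only member called by edgeR in any comparison, Gfpt1 came nearest to a call by edgeR after it, and Krtcap2 and Alg12 held the only matches to 4 motifs of ER stress genes that were searched on both strands. Ddost lies at chr4:138304488-138304787 and Gfpt1 at chr6:87042596-87042895, both on the plus strand and both without a match. The Krtcap2 window is chr3:89246223-89246522 on the plus strand, and the Alg12 window is chr15:88819269-88819568 on the minus strand. Sequences read 5′ to 3′ along the gene, and capitals mark the motif match.
Ddost: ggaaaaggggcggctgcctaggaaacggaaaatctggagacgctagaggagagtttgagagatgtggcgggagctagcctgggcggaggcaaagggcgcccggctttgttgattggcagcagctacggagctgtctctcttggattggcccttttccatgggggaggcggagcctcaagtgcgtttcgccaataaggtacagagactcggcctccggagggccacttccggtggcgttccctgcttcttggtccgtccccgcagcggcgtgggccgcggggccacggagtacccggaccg
Gfpt1: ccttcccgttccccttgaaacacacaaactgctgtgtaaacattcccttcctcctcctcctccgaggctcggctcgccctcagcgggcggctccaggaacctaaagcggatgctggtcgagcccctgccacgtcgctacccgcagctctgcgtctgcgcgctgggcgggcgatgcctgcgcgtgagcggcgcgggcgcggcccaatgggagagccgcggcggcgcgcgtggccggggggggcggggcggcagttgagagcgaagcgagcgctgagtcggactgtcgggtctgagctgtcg
Krtcap2: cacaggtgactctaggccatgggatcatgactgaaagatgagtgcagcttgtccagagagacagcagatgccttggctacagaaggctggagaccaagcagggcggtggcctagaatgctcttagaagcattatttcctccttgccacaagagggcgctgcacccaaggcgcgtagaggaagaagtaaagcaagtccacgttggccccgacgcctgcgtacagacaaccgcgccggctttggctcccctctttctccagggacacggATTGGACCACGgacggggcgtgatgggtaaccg
Alg12: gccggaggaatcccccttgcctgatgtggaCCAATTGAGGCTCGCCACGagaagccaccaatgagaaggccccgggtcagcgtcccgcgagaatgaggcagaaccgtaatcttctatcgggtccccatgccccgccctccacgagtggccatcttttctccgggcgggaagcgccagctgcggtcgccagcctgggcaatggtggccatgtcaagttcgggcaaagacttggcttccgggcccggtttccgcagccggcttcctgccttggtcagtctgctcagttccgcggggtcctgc

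The Alg12 match was to the ER stress element ERSE (CCAAT, then any 9 bases, then CCACG), which 0.119% of 32851 promoter windows of mouse genes held. It lay 220 to 202 bases before the Alg12 start. Krtcap2 matched ERSE-II (ATTGG, then any base, then CCACG; 0.0365% of windows), 17 to 27 bases after the base at which transcription starts. No member matched the unfolded protein response element UPRE (TGACGTGG, 0.676% of windows) or the composite site of ATF4 and C/EBP proteins (TGATGNAA, 3.97%). The motifs do not overlap each other in these windows. The table held 40 windows for 38 of the 45 members. No entry was found for Alg2, Alg11, Dpagt1, Gmppb, Gnpnat1, Ostc and Tusc3. A match is a description of these letters and not a measured binding site.

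Levels per transcript length were compared on the deposited FPKM scale, as medians over the 13 samples. The oligosaccharyltransferase subunits led the list: Dad1, a small subunit shared by all forms of the complex, had 16.3 FPKM, Ostc 5.51, the catalytic subunit Stt3a 4.59 and Krtcap2 4.59. The median over the 10 subunits was 4.11 FPKM. The 6 enzymes of lumenal assembly had a median of 0.407 FPKM, from 0.233 for Alg8 to 1.77 for Alg10b. Dpagt1 had 1.03 FPKM, with a range of 0.698 to 1.17. Pmm1 was lowest, at 0.146, and was listed at 0 in at least 1 sample. The lowest sample of Dad1, 11.2 FPKM, lay above the highest of Ostc, 9.01. Below Dad1, neighbours in this order overlapped in range, as the plot of FPKM by gene shows.

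**Figure D1:**
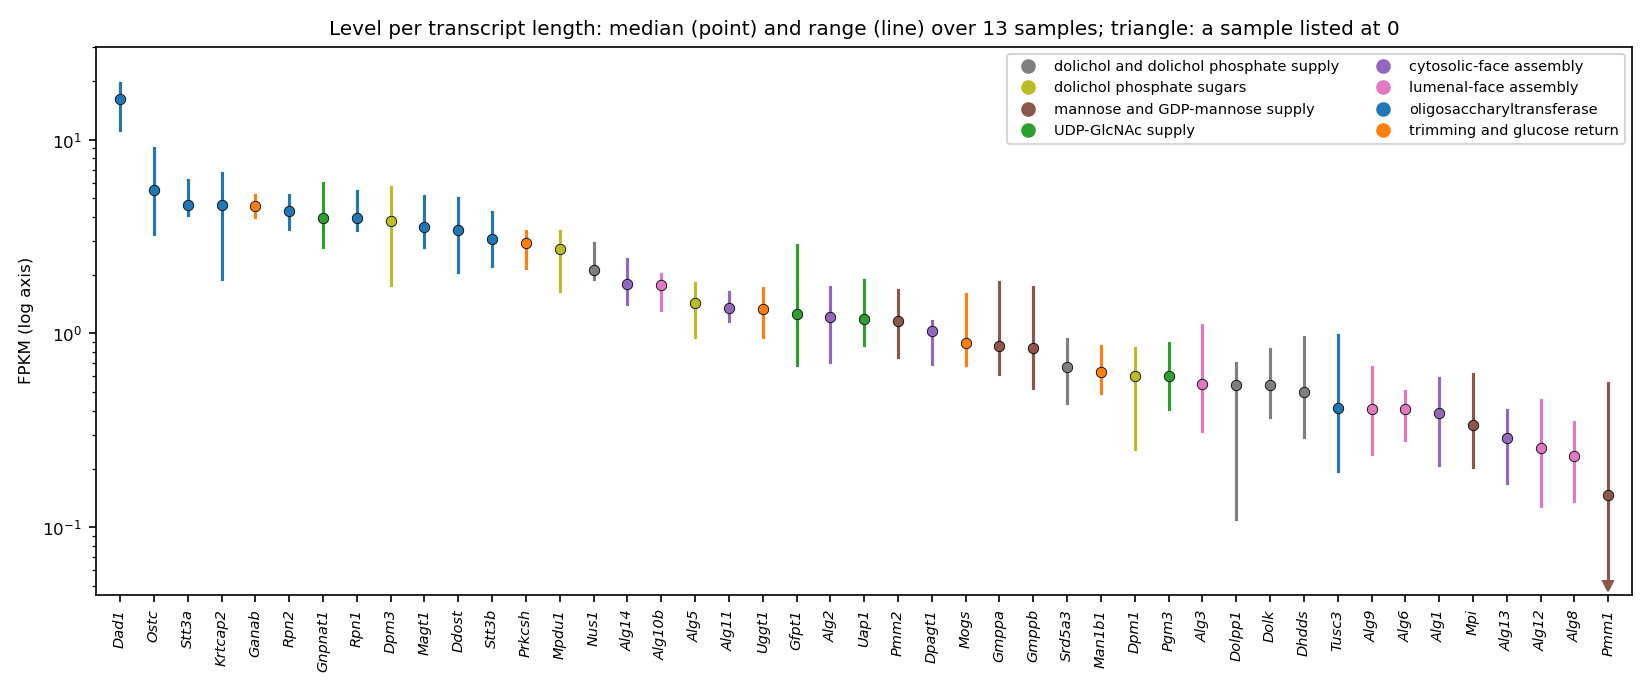
Level of each of the 45 genes per transcript length, in FPKM on a log axis, as the median (point) and range (line) over 13 samples, coloured by role. Dad1 stood highest at 16.3 FPKM, oligosaccharyltransferase subunits filled most of the upper end, and Pmm1, with a downward triangle, was listed at 0 in at least 1 sample.

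Tunicamycin in WT liver asks how the genes of the pathway stand after a drug that targets its own first step. Dpagt1 activity and protein glycosylation in these livers were not among the values used. One member rose: Ddost, a non-catalytic subunit of the oligosaccharyltransferase, was called in edgeR's quasi-likelihood test (1 of 43 members, against 0.363% of all 9644 genes tested). Beyond the call, values of most members lay on the same side. Log2 fold changes were positive for 37 of 43 members (51.7% of all genes), with a median of 0.24 against 0.01 over all genes. Scaling by total count put the median of all genes at -0.18 and left 27 members positive, and the members' median stood 0.23 above that of all genes, against 0.22 with TMM scaling. This gap was 0.0496 with log2(FPKM + 1) and 0.134 with log2(FPKM + 0.1), where 29 and 30 of 45 members were positive. It was 0.183 with log2(FPKM + 1) at a mean FPKM of at least 1, where 17 of 24 were positive. In the edgeR fit with TMM scaling 13 members, or 30.2%, had an unadjusted p under 0.05, all with higher means after tunicamycin. Of all genes 14.8% did in either direction and 7.93% with higher means. These 13 were Alg2, Ddost, Gfpt1, Gmppa, Gmppb, Gnpnat1, Krtcap2, Mogs, Ostc, Pgm3, Stt3a, Stt3b and Uggt1. The samples of the 2 groups did not overlap for 13 members with higher values (8.63% of all genes) and for 1 with lower values, Alg11 (8.65%).

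The 13 members rested in part on single samples. Leaving out WT tunicamycin 3, the library that stood apart, gave 11 and raised the calls over all genes from 35 to 615. Leaving out WT tunicamycin 1 gave 6, leaving out WT vehicle 1 gave 7, and leaving out WT tunicamycin 2, the library low for Hspa5, gave 12. Total count scaling gave 6, DESeq2 8 and the FPKM values from 2 to 5.

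**Figure D2:**
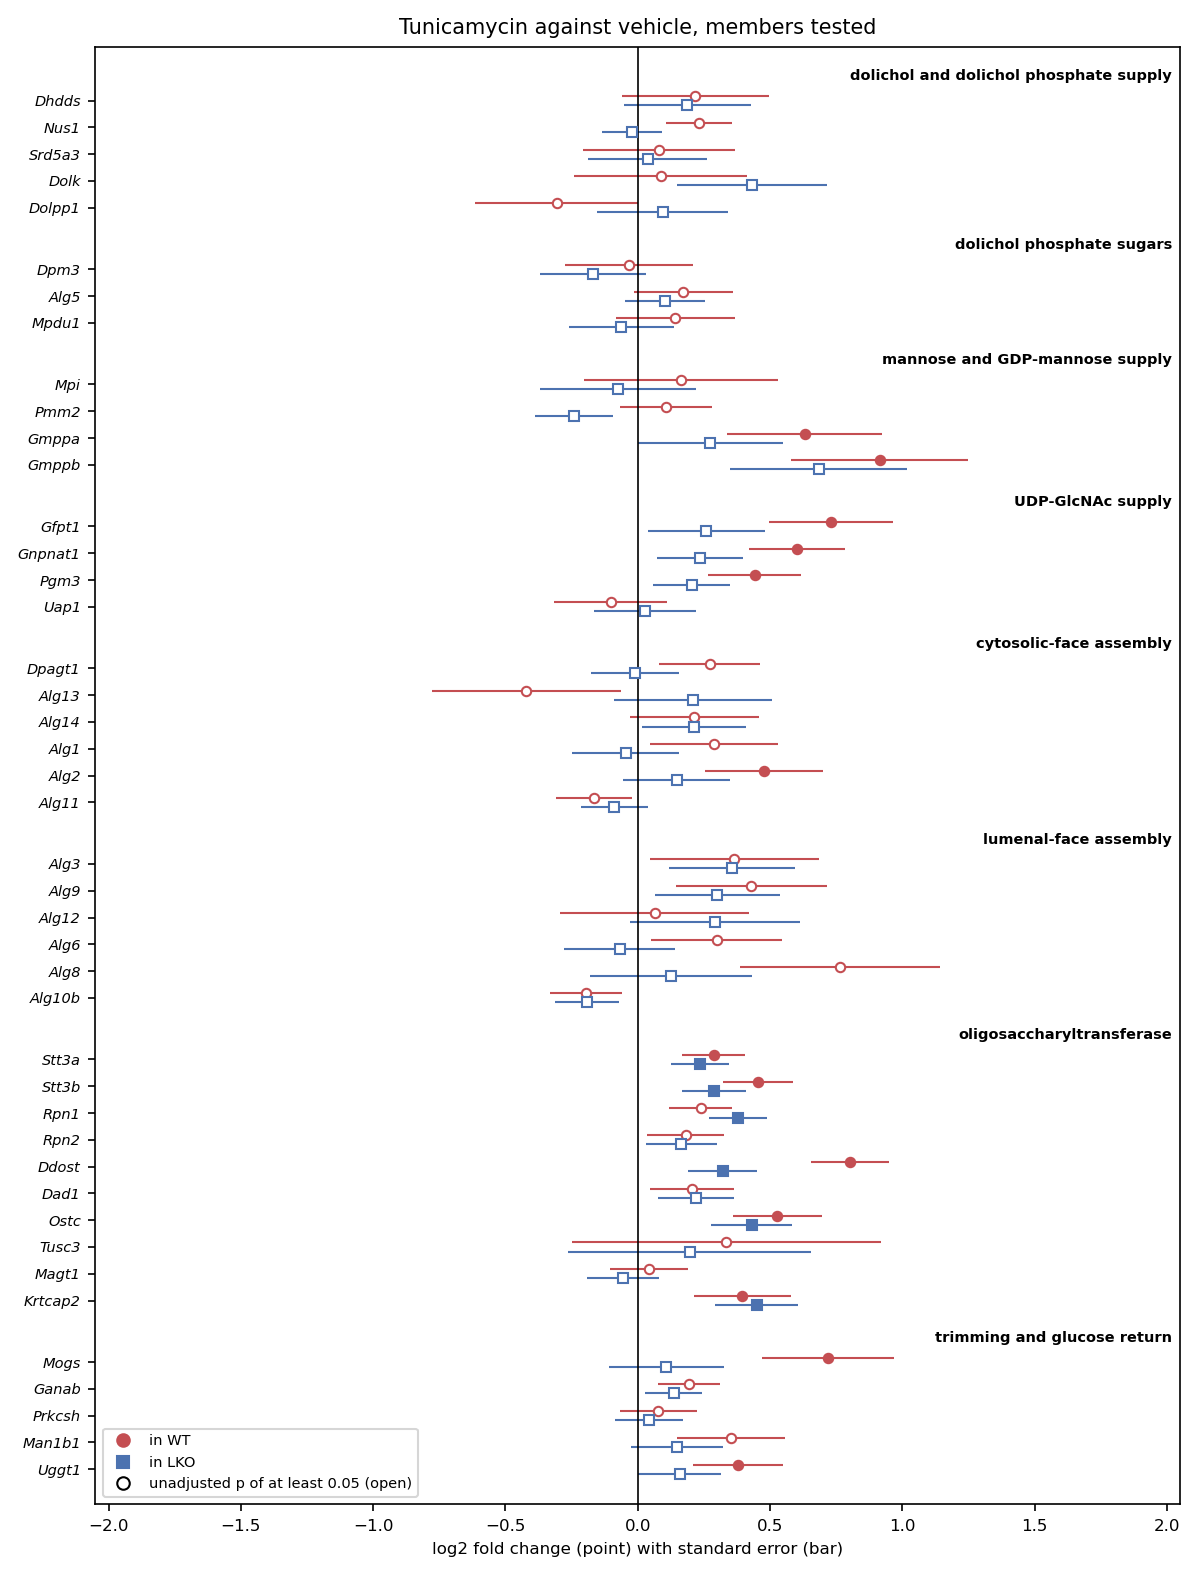
Log2 fold change of tunicamycin against vehicle (points) with its standard error (bars) for the 43 members tested, by role, in WT (red circles) and LKO (blue squares), from the edgeR fit with TMM scaling. Filled symbols have an unadjusted p under 0.05: 13 members in WT across 5 roles and 6 in LKO, all subunits of the oligosaccharyltransferase.

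In LKO liver the same comparison gave 0 called members in edgeR's quasi-likelihood test and 0 in DESeq2 (0.0311% of all genes were called by edgeR). At an unadjusted p under 0.05 there were 6 members, or 14%, against 12.2% of all genes in either direction and 5.83% with higher means. All 6 were oligosaccharyltransferase subunits with higher means: Rpn1, Krtcap2, Ostc, Ddost, Stt3b and Stt3a. Their number was 3 without LKO vehicle 1, the library with a WT-like Rbbp5 level. Positive log2 fold changes numbered 32 of 43 members (50.8% of all genes), and 31 with total count scaling. The median was 0.16, against 0.00 over all genes, and it was 0.09 without LKO vehicle 1. Relative to the median of all genes it stood at 0.154 with TMM, 0.0517 with log2(FPKM + 1) and 0.119 with log2(FPKM + 0.1). With log2(FPKM + 1) at a mean FPKM of at least 1 it stood at 0.134. The samples did not overlap for 6 members with higher values (5.03% of all genes), namely Stt3a, Stt3b, Rpn1, Ostc, Krtcap2 and Ganab. Of the 13 members of the WT list 5 were also on the LKO list (38.5% of the first and 83.3% of the second). The share of all genes on both lists was not counted. These 2 comparisons share no sample, but they come from 1 fit with a shared estimate of the spread.

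Whether tunicamycin acted differently in the 2 genotypes was tested by the interaction of genotype and treatment. No member and no other gene was called (0 of 9644 genes by edgeR, and 0 members by DESeq2). At an unadjusted p under 0.05 there was 1 member, Ddost, with a negative estimate, against 4.91% of all genes in either direction and 2.79% with a negative one. The estimate was negative, meaning a smaller log2 fold change in LKO, for 33 of 43 members (53.5% of all genes), with a median of -0.13 against -0.02. With total count scaling 19 of 43 were negative, and with FPKM and no filter 22 of 45 were, and the median of all genes also moved above 0 in both. Relative to the median of all genes, the members' median stood at -0.105 with TMM and -0.106 with total count scaling, but at -0.00113 with log2(FPKM + 1) and -0.0286 with log2(FPKM + 0.1). Leaving out WT tunicamycin 2 gave 3 members at an unadjusted p under 0.05, and leaving out WT vehicle 1, LKO vehicle 2 or LKO tunicamycin 4 gave 0.

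LKO and WT livers were also compared directly after tunicamycin. In edgeR's quasi-likelihood test 0 members were called, against 0.861% of all genes, and DESeq2 called 1, Gfpt1. At an unadjusted p under 0.05 there were 8 members, all with lower means in LKO (18.6%, against 15.8% of all genes in either direction and 8.24% with lower means): Gfpt1, Magt1, Gmppb, Nus1, Gmppa, Ostc, Stt3b and Alg2. Their number was 4 without WT tunicamycin 1, 4 without LKO tunicamycin 4, and 3 with total count scaling. Log2 fold changes were negative for 31 of 43 members (52% of all genes) with a median of -0.15, but for 22 with total count scaling, which put the median of all genes at 0.14, and for 21 of 45 with log2(FPKM + 1). Relative to all genes the members' median was -0.138 with TMM, -0.14 with total count scaling and 0.00139 with log2(FPKM + 1). It was -0.0676 with log2(FPKM + 0.1) and -0.0564 with log2(FPKM + 1) at a mean FPKM of at least 1. Samples did not overlap for Nus1, Ostc and Magt1, each lower in LKO (6.58% of all genes). This comparison and the WT one share the WT tunicamycin samples.

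With vehicle, LKO against WT gave 0 called members by edgeR and 0 by DESeq2, against 0.0415% of all genes. Only Magt1 had an unadjusted p under 0.05 (2.33% of members, against 8.15% of all genes in either direction and 3.44% with lower means), and 18 of 43 members had a positive log2 fold change (50.9% of all genes). The number at an unadjusted p under 0.05 was 5 without a filter on low counts and 3 with only these 2 groups fitted. It was 6 without the summed LKO vehicle sample, 4 without WT vehicle 1, 4 without WT tunicamycin 2, 3 without WT tunicamycin 1, and 0 without WT vehicle 3 or LKO vehicle 2. Without LKO vehicle 1 it was 3, with 22 members positive. Samples did not overlap for 3 members with higher values in LKO, Pmm2, Pgm3 and Alg3 (7.52% of all genes), and for 3 with lower values, Gmppb, Ostc and Magt1 (7.58%).

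**Figure D3:**
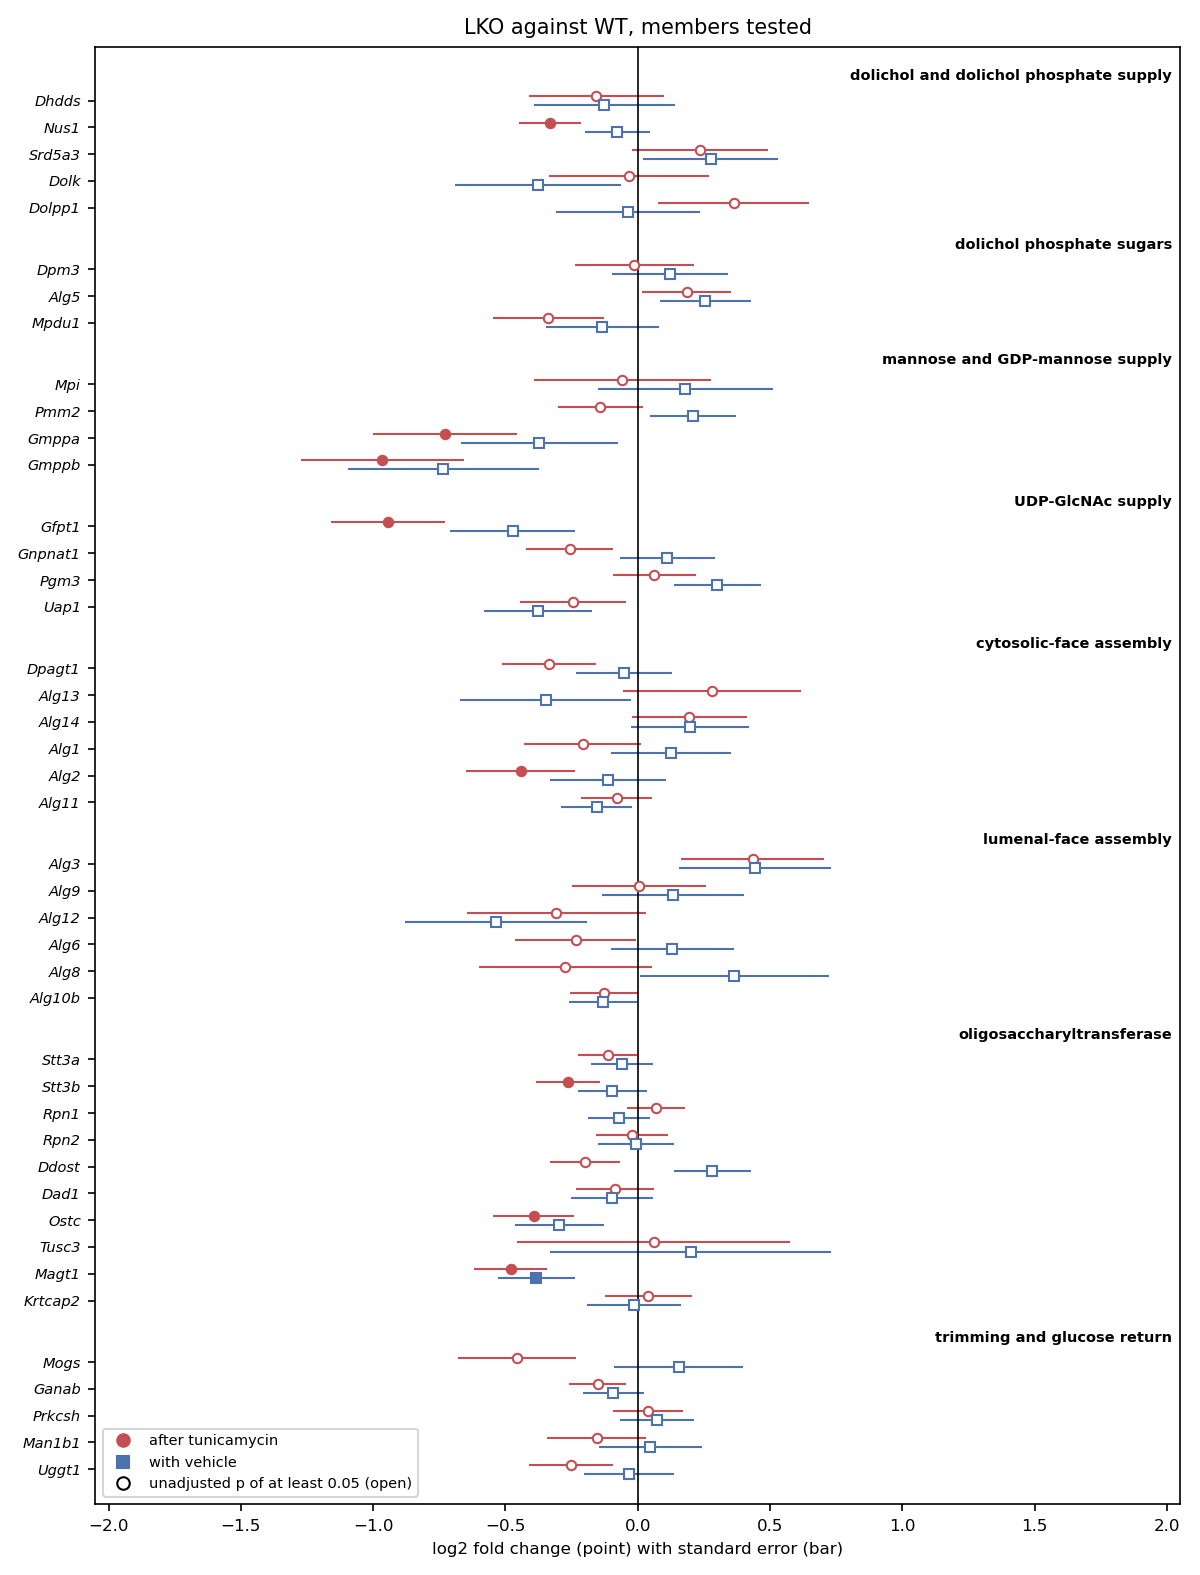
Log2 fold change of LKO against WT (points) with its standard error (bars) for the 43 members tested, by role, after tunicamycin (red circles) and with vehicle (blue squares), from the edgeR fit with TMM scaling. Filled symbols have an unadjusted p under 0.05: 8 members after tunicamycin, all left of 0, and Magt1 with vehicle.

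Dolichol supply starts with Dhdds and Nus1, the catalytic and the regulatory subunit of the enzyme that makes the dolichol chain. Nus1 (chromosome 10, 52417547 to 52440192, mm10) had 19.4, 21.9 and 21.4 CPM in WT vehicle, 27.7, 23.99 and 21.9 in WT tunicamycin, 20.02, 17.7 and 21.6 in LKO vehicle and 20.4, 20.6, 19.7 and 17.5 in LKO tunicamycin. All WT tunicamycin samples lay above all LKO tunicamycin samples. LKO against WT after tunicamycin gave -0.33 ± 0.12 (log2 fold change ± SE, edgeR adjusted p 0.187), and that of tunicamycin in WT was 0.23 ± 0.13 (adjusted p 0.406), where the highest vehicle and the lowest tunicamycin sample both round to 21.9 CPM. The other 4 genes of this step, Dhdds, Srd5a3, which reduces polyprenol to dolichol, the kinase Dolk and the phosphatase Dolpp1, had log2 fold changes of -0.31 to 0.22 in WT, and none had an unadjusted p under 0.05 in any comparison.

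Dolichol phosphate sugars are the sugar donors on the lumenal face. Alg5 (chromosome 3, 54735539 to 54749795), which makes dolichol phosphate glucose, had 5.63, 3.59 and 5.54 CPM in WT vehicle, 5.09, 6.32 and 5.25 in WT tunicamycin, 5.69, 5.55 and 6.29 in LKO vehicle and 6.66, 6.51, 6.11 and 5.97 in LKO tunicamycin. Tunicamycin and vehicle samples overlapped in both genotypes. Its WT log2 fold change, 0.17 ± 0.19 (SE, edgeR adjusted p 0.727), turned to -0.03 with total count scaling. Mpdu1 (chromosome 11, 69656699 to 69662649), which is needed to use these donors, had 4.31, 8.07 and 8.16 CPM in WT vehicle, 6.605, 7.296 and 8.64 in WT tunicamycin, 5.33, 7.15 and 5.93 in LKO vehicle and 4.93, 6.897, 6.32 and 5.54 in LKO tunicamycin. Its groups overlapped, with -0.34 ± 0.21 in LKO against WT after tunicamycin (adjusted p 0.468). Dpm3, the membrane anchor of dolichol phosphate mannose synthase, was at -0.03 in WT and -0.17 in LKO.

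GDP-mannose is made by Mpi, the phosphomannomutases and GDP-mannose pyrophosphorylase, whose catalytic and regulatory subunits are Gmppb and Gmppa. Gmppb (chromosome 9, 108049290 to 108051936) had 2.28, 3.72 and 3.21 CPM in WT vehicle, 7.71, 2.59 and 6.79 in WT tunicamycin, 1.896, 1.898 and 1.72 in LKO vehicle and 3.33, 3.25, 1.73 and 3.58 in LKO tunicamycin. WT tunicamycin 1 and 3 stood above every other sample, while WT tunicamycin 2 lay within the WT vehicle range. The log2 fold change of tunicamycin was 0.91 ± 0.34 in WT (SE, edgeR adjusted p 0.207) and 0.68 ± 0.33 in LKO (adjusted p 0.433), and that of LKO against WT after tunicamycin was -0.97 ± 0.31 (adjusted p 0.148). Without WT tunicamycin 2 this last value was -1.30 with an adjusted p of 0.0165, which passed. Gmppa had the same order of samples in WT tunicamycin, 8.39, 4.05 and 7.25 CPM, against 4.19, 3.59 and 5.102 in WT vehicle. Hspa5 moved with both genes in being lowest in WT tunicamycin 2, and its part in their values was not tested. Between 16 and 56 reads per sample lay behind Gmppb. Mpi and Pmm2 had WT log2 fold changes of 0.16 and 0.11.

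UDP-GlcNAc is both the donor for Dpagt1 and the end product of the hexosamine pathway, which runs through Gfpt1, Gnpnat1, Pgm3 and Uap1. Gfpt1 (chromosome 6, 87042846 to 87092207), its rate-limiting enzyme, had 15.8, 20.1 and 20.3 CPM in WT vehicle, 41.8, 21.1 and 29.8 in WT tunicamycin, 13.3, 10.2 and 16.7 in LKO vehicle and 21.3, 13.8, 16.1 and 13.5 in LKO tunicamycin. The WT tunicamycin samples lay above all WT vehicle samples and, except for WT tunicamycin 2, above all LKO samples. Tunicamycin gave a log2 fold change of 0.73 ± 0.23 in WT (SE, edgeR adjusted p 0.155) and 0.26 ± 0.22 in LKO (adjusted p 0.695). LKO against WT after tunicamycin stood at -0.94 ± 0.22 (edgeR adjusted p 0.0511), just outside the threshold. It passed in DESeq2 (adjusted p 0.0132), without a filter on low counts, and without WT tunicamycin 2, where it was -1.15 (edgeR adjusted p 0.0117). It was -0.66 without WT tunicamycin 1 (adjusted p 0.234).

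Gnpnat1 (chromosome 14, 45376421 to 45388796), which acetylates glucosamine phosphate, had 10.1, 15.4 and 13.4 CPM in WT vehicle, 24.2, 17.5 and 16.98 in WT tunicamycin, 15.05, 15.6 and 11.5 in LKO vehicle and 15.9, 16.9, 18.2 and 14.7 in LKO tunicamycin. WT tunicamycin samples all lay above WT vehicle, and LKO tunicamycin overlapped LKO vehicle. The WT log2 fold change was 0.60 ± 0.18 (SE, edgeR adjusted p 0.132). Pgm3, the mutase that follows, had 8.39, 7.46 and 8.798 CPM in WT tunicamycin against 5.51, 6.41 and 6.27 in WT vehicle, which did not overlap (0.44 ± 0.18, adjusted p 0.2402). Uap1, which makes UDP-GlcNAc itself, was at -0.10 with 12.2, 7.78 and 13.9 CPM in WT tunicamycin and 11.6, 10.6 and 14.4 in WT vehicle. Groups were apart and higher in WT after tunicamycin for 3 of these 4 genes (8.63% of all genes), and Uap1 overlapped.

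Dpagt1 (chromosome 9, 44326845 to 44333600), the target of tunicamycin, had 4.91, 4.87 and 4.52 CPM in WT vehicle, 5.78, 4.54 and 6.95 in WT tunicamycin, 4.15, 5.33 and 4.27 in LKO vehicle and 3.997, 4.29, 4.79 and 5.103 in LKO tunicamycin. All 4 groups overlapped. The log2 fold change of tunicamycin was 0.27 ± 0.19 in WT (SE, 95% interval -0.13 to 0.68, edgeR adjusted p 0.545) and -0.01 ± 0.17 in LKO (-0.36 to 0.34, adjusted p 0.994). With FPKM and no filter the WT value turned negative, to -0.04 with 1 added and -0.07 with 0.1 added. LKO against WT after tunicamycin was -0.33 ± 0.18 (adjusted p 0.374). Neither interval reached a log2 fold change of 1 or -1, and both leave room for smaller changes.

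Of the other enzymes on the cytosolic face, Alg2 (chromosome 4, 47469833 to 47474367), which adds the second and the third mannose, had 8.502, 7.05 and 3.94 CPM in WT vehicle, 10.04, 7.94 and 9.42 in WT tunicamycin, 6.63, 5.48 and 6.23 in LKO vehicle and 7.99, 6.25, 7.44 and 5.32 in LKO tunicamycin. WT vehicle spread the most, and its highest sample lay above the lowest of WT tunicamycin. Its log2 fold change was 0.48 ± 0.22 in WT (SE, edgeR adjusted p 0.335) and -0.44 ± 0.21 for LKO against WT after tunicamycin (adjusted p 0.311). Alg11, which adds the next mannoses, had 15.3, 14.6 and 14.7 CPM in WT vehicle and 12.7, 13.5 and 13.7 in WT tunicamycin, the only member apart and lower (-0.17 ± 0.14, adjusted p 0.638). Alg13 and Alg14, which together add the second GlcNAc, were at -0.42 and 0.21 in WT, and Alg1, which adds the first mannose, at 0.29.

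On the lumenal face Alg3, Alg9 and Alg12 add mannose, and Alg6, Alg8 and Alg10b add glucose. None of the 6 had an unadjusted p under 0.05 in any comparison, and 5 of them had means under 5 CPM. Alg8 (chromosome 7, 97371617 to 97392158) had 0.958, 1.15 and 1.46 CPM in WT vehicle, 2.06, 2.27 and 1.698 in WT tunicamycin, 0.948, 2.12 and 1.36 in LKO vehicle and 0.933, 2.08, 1.94 and 1.63 in LKO tunicamycin. WT tunicamycin lay above WT vehicle in all samples (0.76 ± 0.38, SE, edgeR adjusted p 0.354). Reads behind each value numbered 8 to 15 in WT and 7 to 29 over all groups. Alg3 (chromosome 16, 20605458 to 20610749) had 1.796, 1.41 and 1.17 CPM in WT vehicle, 2.48, 1.62 and 1.54 in WT tunicamycin, 2.01, 2.12 and 1.899 in LKO vehicle and 1.87, 3.38, 2.65 and 2.39 in LKO tunicamycin. LKO vehicle lay above WT vehicle in every sample, and the tunicamycin groups overlapped (0.43 ± 0.27, adjusted p 0.471). Alg10b, the most abundant, was at -0.20 in WT and -0.19 in LKO.

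Alg12 (chromosome 15, 88805243 to 88819318), whose promoter window holds the ERSE match shown above, starts 328 bases from Creld2 on the other strand. Creld2, which encodes an ER protein induced by ER stress, had 8.98, 8.33 and 10.8 CPM in WT vehicle, 59.03, 13.3 and 49.7 in WT tunicamycin, 2.49, 2.41 and 7.59 in LKO vehicle and 6.66, 3.77, 2.96 and 7.06 in LKO tunicamycin. It was at 2.13 ± 0.45 in WT with tunicamycin (SE, edgeR adjusted p 0.0512), and it fell in LKO against WT after tunicamycin (-3.0 ± 0.44, adjusted p 0.0102). Alg12 had 1.197, 1.79 and 1.17 CPM in WT vehicle and 1.79, 1.62 and 0.926 in WT tunicamycin, with log2 fold changes of 0.06 ± 0.36 in WT and -0.31 ± 0.34 for LKO against WT after tunicamycin (adjusted p 0.956 and 0.714). Both genes were given for the shared region and were chosen after their values were seen.

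The oligosaccharyltransferase held the called gene. In WT with tunicamycin 5 of its 10 subunits and 3 of the 4 UDP-GlcNAc genes had higher means at an unadjusted p under 0.05 (7.93% of all genes). So did 2 of the 4 GDP-mannose genes tested, 2 of the 5 trimming genes and 1 of the 6 cytosolic-face genes. No gene of dolichol supply, dolichol phosphate sugars or lumenal-face assembly did. Of the 10 subunits all had a positive log2 fold change in WT with tunicamycin (0.04 to 0.80, against 51.7% of all genes positive). In LKO 9 had one (50.8% of all genes), Magt1 being the exception (-0.05). Ddost (chromosome 4, 138304738 to 138312611) had 11.5, 14.4 and 14.1 CPM in WT vehicle, 26.01, 23.8 and 19.8 in WT tunicamycin, 14.3, 18.8 and 15.2 in LKO vehicle and 22.3, 20.7, 18.5 and 19.5 in LKO tunicamycin. WT tunicamycin lay above WT vehicle in all samples, LKO tunicamycin overlapped LKO vehicle at the sample with 18.8 CPM, and WT tunicamycin 2 was not low. Means were 13.3 ± 1.59 CPM (SD, n = 3), 23.2 ± 3.17 (n = 3), 16.1 ± 2.34 (n = 3) and 20.3 ± 1.59 (n = 4). With tunicamycin its log2 fold change was 0.80 ± 0.15 in WT (SE, edgeR adjusted p 0.0388) and 0.32 ± 0.13 in LKO (adjusted p 0.341). The interaction was -0.48 ± 0.20 (unadjusted p 0.0257, adjusted p 0.935).

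The Ddost call was lost without any 1 of WT vehicle 1, 2 or 3, WT tunicamycin 1 or 2, or LKO tunicamycin 2, 3 or 4, and also with FPKM and with only the 2 WT groups fitted. Its log2 fold change stayed positive in all 26 alternatives, from 0.56 with log2(FPKM + 1) to 0.91 without WT tunicamycin 3, with adjusted p from 0.00194 to 0.206. Without WT tunicamycin 3 Gnpnat1, Ostc and Stt3b were called as well.

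The catalytic subunits are Stt3a, which glycosylates proteins as they enter the ER, and Stt3b, which acts on sites that were skipped. Stt3b had 48.02, 45.6 and 37.97 CPM in WT tunicamycin against 29.8, 31.1 and 35.1 in WT vehicle (0.46 ± 0.13, edgeR adjusted p 0.124), and 40.5, 35.3, 35.5 and 34.96 in LKO tunicamycin against 25.0, 31.9 and 32.5 in LKO vehicle (0.29 ± 0.12, adjusted p 0.356). Neither pair of groups overlapped. Stt3a had 46.5, 37.5 and 37.97 CPM against 33.5, 35.2 and 31.2 in WT and 38.1, 40.3, 35.6 and 36.5 against 29.3, 35.1 and 31.4 in LKO, apart in both, with log2 fold changes of 0.29 and 0.23. Rpn1, a structural subunit, was at 0.24 in WT and at 0.38 ± 0.11 in LKO, where tunicamycin samples had 43.7, 38.8, 40.8 and 38.7 CPM and vehicle samples 28.9, 32.7 and 31.6 (edgeR adjusted p 0.2205). Rpn1 had the smallest unadjusted p of the members in LKO, 0.002996.

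Ostc and Krtcap2 belong to the form of the complex built around Stt3a, and Magt1 and Tusc3 to that built around Stt3b. Ostc had 10.2, 10.3 and 9.62 CPM in WT vehicle, 18.03, 12.97 and 12.2 in WT tunicamycin, 6.28, 8.61 and 9.196 in LKO vehicle and 11.7, 10.9, 11.5 and 9.88 in LKO tunicamycin. Tunicamycin samples lay above vehicle samples in both genotypes, and LKO samples lay below WT samples of the same treatment (0.53 ± 0.17 and 0.43 ± 0.15 for tunicamycin in WT and LKO, -0.39 ± 0.15 for LKO against WT after tunicamycin, edgeR adjusted p 0.156, 0.294 and 0.226). Krtcap2 had 6.605, 7.13 and 8.18 CPM against 5.39, 6.92 and 4.23 in WT, which overlapped, and 7.73, 8.07, 7.64 and 6.62 against 4.74, 5.91 and 5.64 in LKO, which did not (0.40 ± 0.18 and 0.45 ± 0.16, adjusted p 0.331 and 0.286).

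Magt1 (chromosome X, 105968085 to 106011899), an oxidoreductase subunit, had 36.8, 38.8 and 42.3 CPM in WT vehicle, 46.6, 31.5 and 43.1 in WT tunicamycin, 29.5, 25.8 and 34.9 in LKO vehicle and 31.2, 28.9, 29.2 and 26.7 in LKO tunicamycin. Tunicamycin and vehicle samples overlapped in both genotypes (0.04 ± 0.15 in WT and -0.05 ± 0.14 in LKO). LKO samples lay below WT samples with either treatment, at -0.38 ± 0.15 with vehicle (SE, edgeR adjusted p 0.499) and -0.48 ± 0.14 after tunicamycin (adjusted p 0.109). Neither passed, except that the second did without WT tunicamycin 2 (adjusted p 0.0238). Tusc3, its paralogue in the same form of the complex, had the lowest mean CPM of the members tested. It had 3 to 22 reads per sample and standard errors of 0.46 to 0.58 in the 4 comparisons of groups. The plot of the 10 subunits by sample shows these values.

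**Figure D4:**
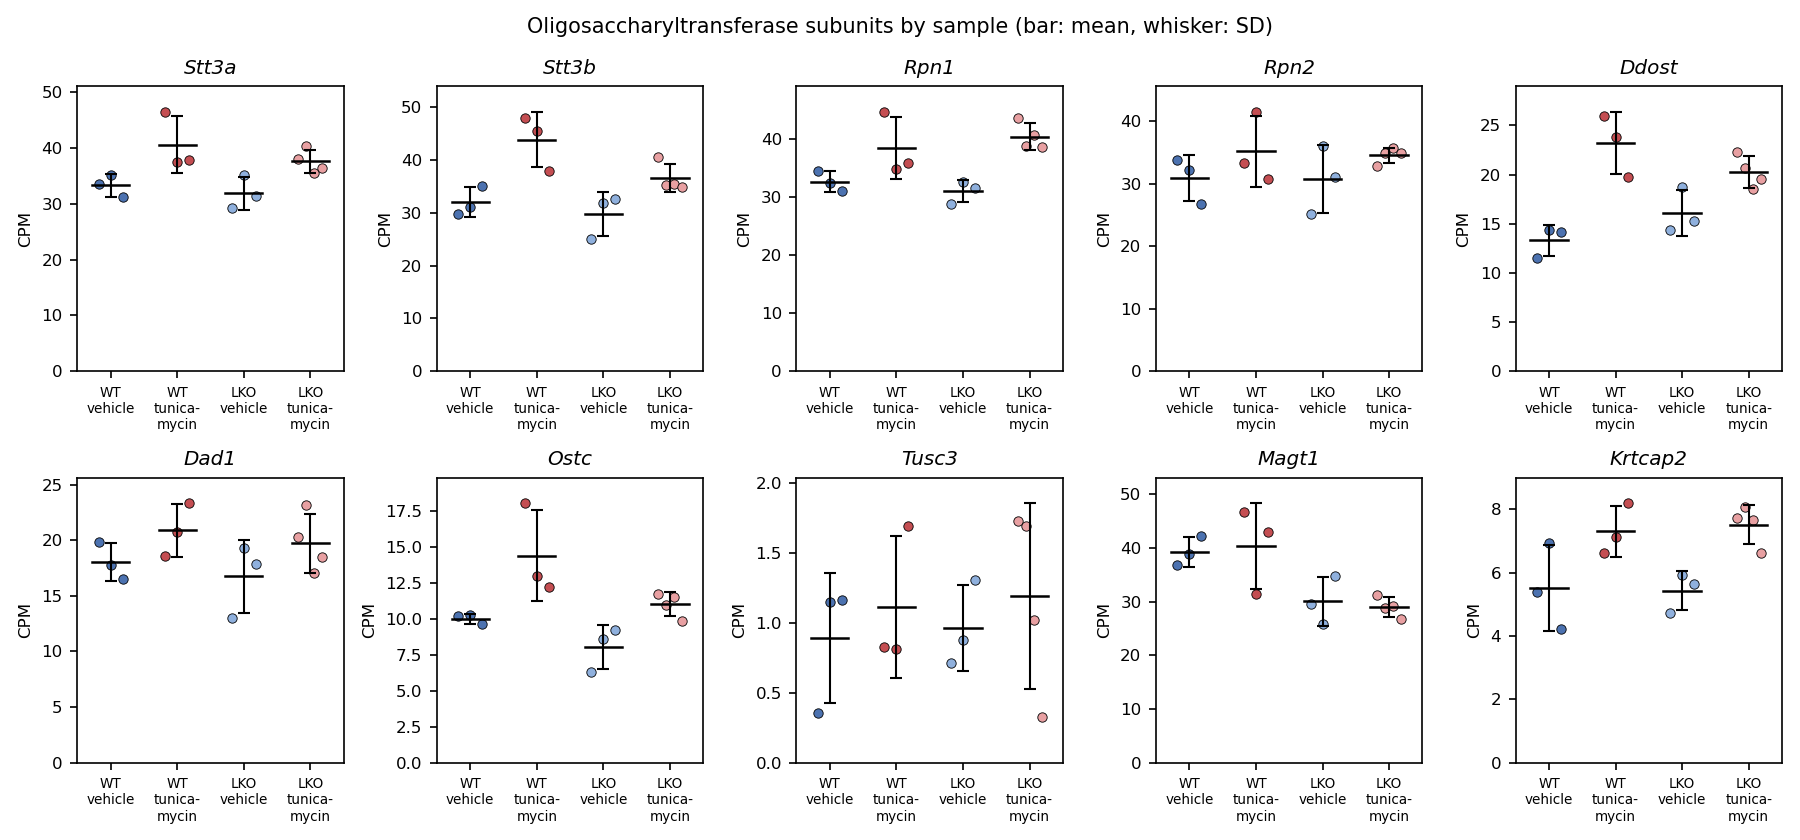
CPM of the 10 oligosaccharyltransferase subunits in each of 13 samples (points) by group, with the mean (bar) and SD (whisker). Ddost ran from 11.5 to 14.4 CPM in WT vehicle and from 19.8 to 26.0 in WT tunicamycin, and Magt1 was lower in LKO than in WT with either treatment.

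Cell type markers were read beside these values. Kupffer cell and macrophage markers (7 of 7 tested) all had positive log2 fold changes with tunicamycin, in LKO (50.8% of all genes) and in WT (51.7%). Their medians were 0.45 in LKO and 0.30 in WT. Of the 7 markers 4 had an unadjusted p under 0.05 in LKO (5.83% of all genes did so with higher means). In WT 0 did (7.93% of all genes). The 7 markers summed to 35.0 to 57.1 CPM in LKO vehicle and 52.7 to 105.8 in LKO tunicamycin. In WT they summed to 44.5 to 52.5 with vehicle and 50.8 to 65.6 with tunicamycin. Bile duct markers (2 of 5 tested) summed to 8.60 to 11.7 CPM in WT vehicle, 8.49 to 42.5 in WT tunicamycin, 17.4 to 55.2 in LKO vehicle and 35.8 to 110.7 in LKO tunicamycin, mostly from Spp1, while Krt19 ranged from 0 to 0.831 CPM. Stellate cell and fibroblast markers (5 of 6 tested) summed to 62.9 to 104.4, 87.7 to 121.6, 107.6 to 148.6 and 100.7 to 157.5 CPM in the same order. Of 6 lymphocyte and neutrophil markers Ptprc, S100a8 and S100a9 were tested, S100a8 with 1 to 35 and S100a9 with 0 to 19 reads per sample. With tunicamycin 2 were higher at an unadjusted p under 0.05 in each genotype (7.93% of all genes in WT and 5.83% in LKO). The 6 markers summed to 3.33 to 5.63 CPM in WT vehicle, 3.7 to 12.9 in WT tunicamycin, 5.92 to 6.86 in LKO vehicle and 8.13 to 11.6 in LKO tunicamycin. Their sums overlapped in WT and did not in LKO. In LKO with tunicamycin 4 of 6 endothelial markers and 2 of 6 hepatocyte markers had positive log2 fold changes (50.8% of all genes), with medians of 0.03 and -0.22. The part of all these cells in the members' values was not tested.

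Trimming begins with Mogs, glucosidase I, and goes on with glucosidase II, made of Ganab and Prkcsh, while Uggt1 puts a glucose back on misfolded proteins. Mogs (chromosome 6, 83115506 to 83118898) had 4.55, 4.87 and 4.08 CPM in WT vehicle, 9.22, 5.999 and 6.95 in WT tunicamycin, 7.35, 4.53 and 3.797 in LKO vehicle and 5.73, 4.55, 6.52 and 4.78 in LKO tunicamycin. WT tunicamycin lay above WT vehicle in all samples, and the LKO groups overlapped. Tunicamycin gave 0.72 ± 0.25 (log2) in WT (SE, edgeR adjusted p 0.182) and 0.11 ± 0.22 in LKO (adjusted p 0.894), with an interaction of -0.61 ± 0.33 (adjusted p 0.981). Uggt1 had 56.6, 49.1 and 39.5 CPM in WT tunicamycin against 37.4, 38.1 and 36.3 in WT vehicle (0.38 ± 0.17, adjusted p 0.312). Man1b1, an ER mannosidase, was at 0.35, Ganab at 0.19 and Prkcsh at 0.08 in WT, and all 5 genes were between 0.04 and 0.16 in LKO.

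**Figure D5:**
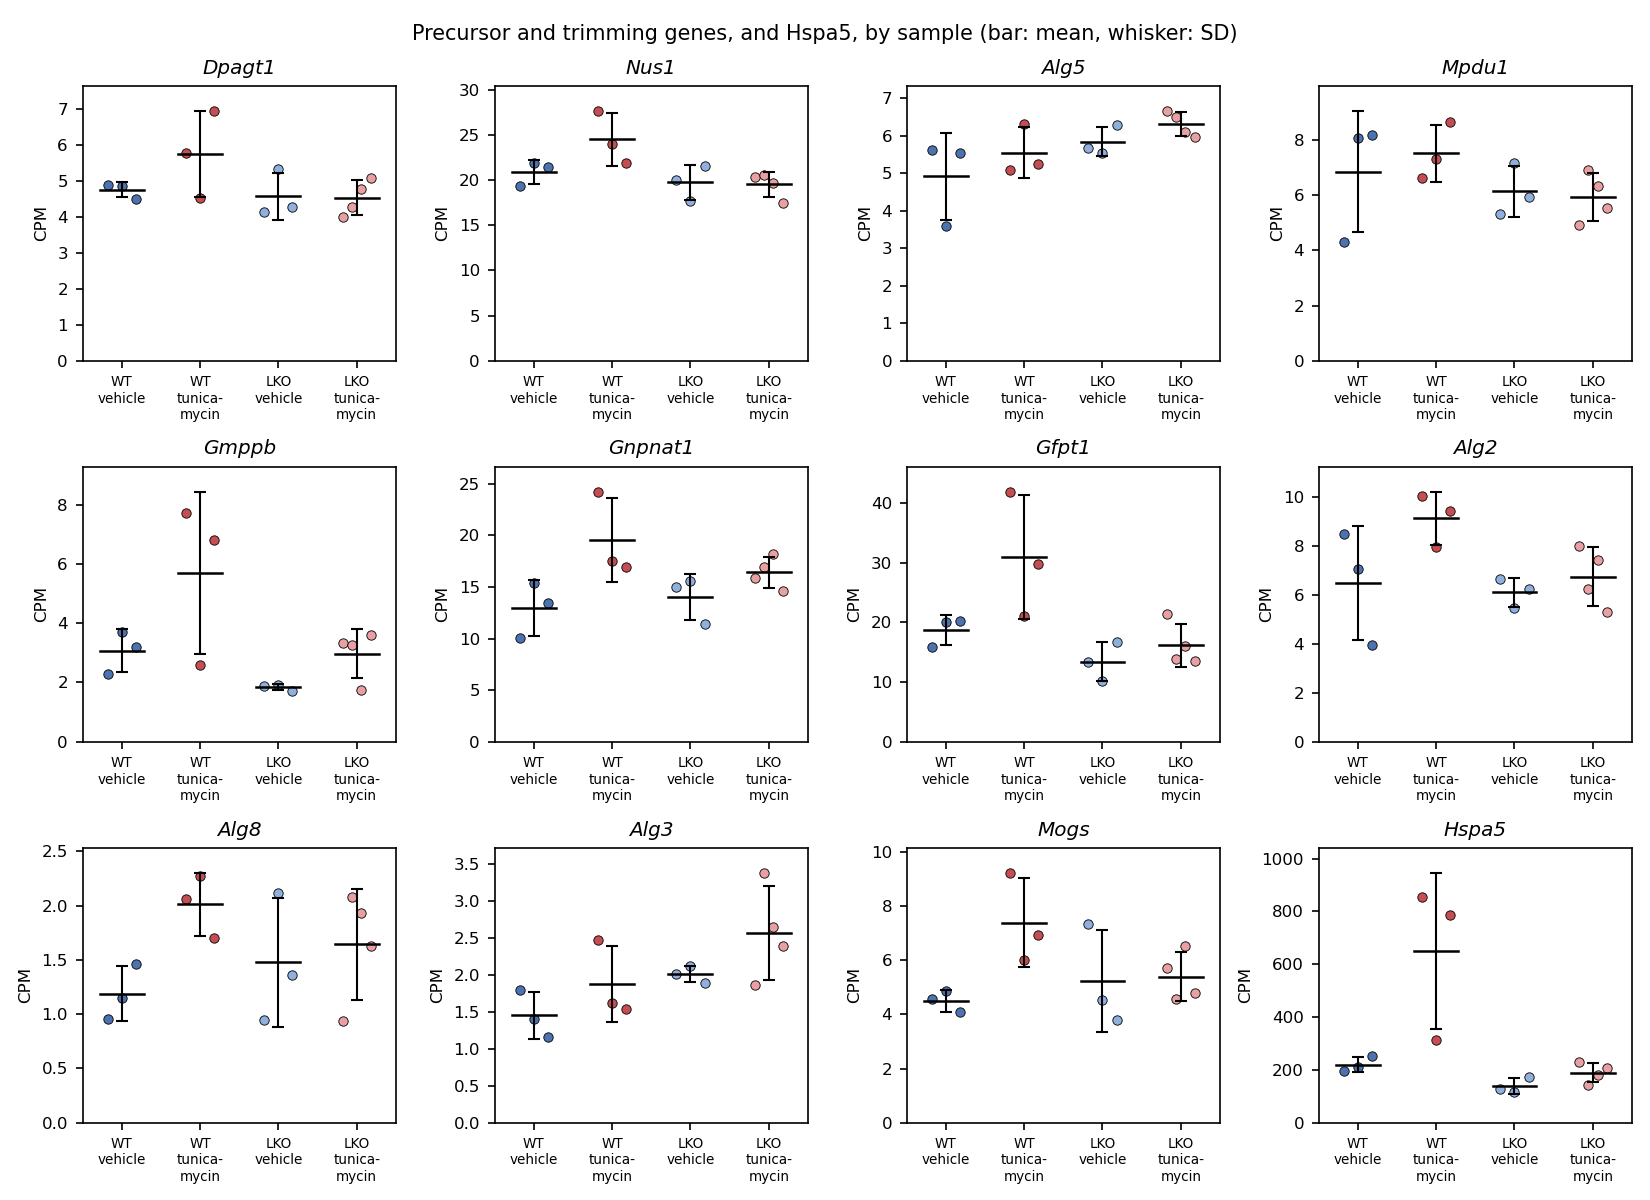
CPM of Dpagt1, of the members of the other steps singled out by the naming rule, and of Hspa5, in each of 13 samples (points) by group, with the mean (bar) and SD (whisker). WT tunicamycin 2 was low for Hspa5 (313 CPM), Gfpt1 (21.1) and Gmppb (2.59), and Dpagt1 overlapped between all groups.

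Genes next to these in the pathway were read as lists of their own, and none was called by edgeR in any comparison. Of 8 other precursor and transferase genes 6 were tested. In WT with tunicamycin the small subunit Ost4 was at 0.45 ± 0.19 and the UDP-GlcNAc transporter Slc35a3 at -0.41 ± 0.13 (edgeR adjusted p 0.288 and 0.141). After tunicamycin, LKO against WT, the kinase Nagk was at 0.85 ± 0.29 and the subunit Tmem258 at -0.40 ± 0.28 (adjusted p 0.172 and 0.521).

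The lectins and degradation factors that read the trimmed glycan (10 of 11 tested) had a median of 0.25 in WT with tunicamycin, with 4 at an unadjusted p under 0.05 (7.93% of all genes were so with higher means) and 7 apart (8.63%), all with higher values. After tunicamycin their median in LKO against WT was -0.30, with 6 at an unadjusted p under 0.05 (8.24% of all genes were so with lower means) and 6 apart (6.58%), all with lower values in LKO. Calr, the lectin chaperone calreticulin, had 201, 209 and 218 CPM in WT vehicle, 385, 328 and 343 in WT tunicamycin, 159, 237 and 202 in LKO vehicle and 328, 234, 233 and 248 in LKO tunicamycin. Its log2 fold change in WT was 0.75 ± 0.17 (SE, edgeR adjusted p 0.0598), and WT tunicamycin did not overlap WT vehicle. Edem1 and Edem3, which send glycoproteins to degradation, were at 0.53 ± 0.14 and 0.41 ± 0.15 in WT (adjusted p 0.0966 and 0.194) and at -0.43 ± 0.13 and -0.52 ± 0.14 in LKO against WT after tunicamycin (adjusted p 0.121 and 0.0801).

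Golgi enzymes that finish the glycan (16 of 17 tested) had a median of 0.16 in WT and 0.01 in LKO with tunicamycin. St6gal1, which adds the terminal sialic acid, had 19.04, 19.3 and 19.4 CPM in WT vehicle, 42.4, 38.6 and 22.8 in WT tunicamycin, 21.6, 33.8 and 17.8 in LKO vehicle and 38.2, 49.8, 41.2 and 35.1 in LKO tunicamycin. Tunicamycin samples lay above vehicle samples in both genotypes (0.85 ± 0.23 in WT and 0.75 ± 0.21 in LKO, edgeR adjusted p 0.111 and 0.215). The galactosyltransferase B4galt1 was at 0.56 ± 0.17 in WT (adjusted p 0.143). In LKO against WT after tunicamycin the branching enzyme Mgat5 was at 0.75 ± 0.30 and the UDP-galactose transporter Slc35a2 at -0.64 ± 0.29 (adjusted p 0.237 and 0.293).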

How the data were processed

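Polyadenylated RNA from liver was sequenced in 14 libraries. Per the file headers, the authors deposited STAR counts, in whole reads for each gene. The submitters' processing notes also name Trimmomatic, Cufflinks and mm10, and versions and annotation are not given in the sources used here. Reads on the gene's strand were used (99.48 to 99.61% of stranded reads), which spares the 11 members with an antisense exon, while Dpm1 shares exons with Gm20716 on the same strand. The deposited FPKM values are the authors' own, per the file headers, and gave levels per length and gene positions. LKO vehicle 2 lists Rn45s at 0 in that table. No per-sample column was left unused.

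Counts were fitted with edgeR 4.0.16 in R 4.3.3 (TMM, filterByExpr by group, quasi-likelihood test, 1 mean per group, 13 samples), and p-values were Benjamini-Hochberg adjusted over all 9644 genes tested. A gene was called at an adjusted p under 0.05. Library sizes behind CPM include the Rn45s reads, so CPM values are lower than a share of the reads on all other genes. Of the members tested 18 had a mean under 5 CPM, and members tested had 3 to 654 reads per sample. Nothing in the labels says that each library is a mouse of its own, so p-values measure the spread between these samples, which may be technical. Group separation means no overlap of CPM values. Alternatives were DESeq2 1.42.0, other scalings, filters, the 14 libraries kept apart, the replicate number as a block, limma 3.58.1 on log2(FPKM + 1) and log2(FPKM + 0.1), only the groups compared, and leaving out each sample.

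The members and the lists were chosen with earlier results of these data known. Values in every sample are given for Dpagt1, called members, and in each step the members with the smallest p for tunicamycin in WT and for LKO against WT after tunicamycin, and other lists' genes by the same 2 comparisons. Further oligosaccharyltransferase, hexosamine and trimming genes, Alg11, Alg12 and Creld2 were added after their values were seen.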

Additional observations from a re-analysis of the deposited data

Results flagged for a closer look

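Among the 43 members tested, the 4 LKO tunicamycin samples of 1 gene had a value far from the others. Stt3b was at 40.5 CPM in LKO tunicamycin 1, where the other 3 samples lay between 35.0 and 35.5 CPM, so the gap to the nearest sample was 0.91 of the group's range. Chance takes the gap past the Dixon critical value, which lies below the one seen here, in about 1 of 20 groups, and this group was looked at for all 43 members.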

How the results depend on the processing

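The number of members called in WT with tunicamycin was 1. It was 2 without a filter on low counts (Ddost and Gfpt1), 0 with log2(FPKM + 1) with or without a filter, 0 with log2(FPKM + 0.1), 0 with only the 2 groups compared, and 0 to 4 when each sample was left out. In LKO against WT after tunicamycin it was 0, but 2 without a filter (Gfpt1 and Gmppb), 1 with DESeq2, 1 with 14 libraries, 1 with 14 libraries and the replicate block (Gfpt1 in each), and 0 to 3 when each sample was left out. The other 3 comparisons had 0 called members in every alternative. The log2 fold change of Alg5 in WT became -0.0267 with total count scaling and -0.000482 with log2(FPKM + 1), with or without a filter, and ranged from -0.0296 to 0.27 when samples were left out. That of Dpagt1 in WT became -0.0379 with log2(FPKM + 1) and -0.0701 with log2(FPKM + 0.1). In LKO it became 0.000382 with 14 libraries and ranged from -0.0678 to 0.11 when samples were left out, and was -0.0754 without the summed LKO vehicle sample. The cause was not tested. Of 41 results on single members, 38 kept their sign in every alternative. These 41 were chosen mostly for a small unadjusted p in the main fit to the same samples. Kept signs were therefore likely from the start and say nothing of the other members.

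Over all genes, calls in settings that kept all samples ranged from 0 to 289 in WT, 0 to 153 in LKO, 0 to 84 for LKO against WT with vehicle, 7 to 261 for LKO against WT after tunicamycin, and were 0 for the interaction. Leaving out samples gave 0 to 615, 0 to 67, 0 to 17, 0 to 183 and 0 to 2. No pairing by replicate number was apparent: of 18 same-numbered pairs 3 correlated over 0.1 (r from -0.12 to 0.14). Differently numbered pairs were not set beside them, so these values cannot show that no pairing exists. With the replicate block on 13 samples, 1 member was called in WT and 0 in the other comparisons.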
